A study of Homo sapiens with 4 samples.

Results

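The regions described here were 7167 places in the genome of human neural stem cells (hNSC) where MEIS protein was detected by both replicates of a chromatin immunoprecipitation and sequencing (ChIP-seq) experiment, but which the list of reproducible sites left out. They were selected on measured values. Of 36796 peaks of replicate 1, 17246 had a −log10 p of at least 5, 12063 of these overlapped no site of the list made with the irreproducible discovery rate (IDR), and 7898 of those overlapped a replicate 2 peak that also had a −log10 p of at least 5. After removal of 731 peaks with a summit within 1 kb of the transcription start site (TSS) of a protein-coding gene, 7167 remained, 19.5% of the replicate 1 peaks. They were paired with 7125 replicate 2 peaks, and there were 1.39 of them for each of the 5169 IDR sites. They are called shared distal peaks below.

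The cells were a commercial hNSC culture kept in StemPro NSC SFM on Geltrex and were not treated. All samples came from this one culture type, so no genotype or treatment was compared. The 2 MEIS ChIP samples were 2 batches of cells handled in parallel, and 2 Input samples of the same cells entered only through peak calling. Each ChIP used 2 antibodies together, anti-MEIS1/2A and anti-MEIS1, so a peak does not tell MEIS1 from MEIS2. The number of reads behind the peaks is unknown.

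MEIS1 and MEIS2 belong to the TALE class of homeodomain proteins, which bind DNA and regulate transcription. They recognize the DNA core TGACAG, often side by side with a PBX partner of the same class, and they bind mostly away from promoters, at enhancers, where other factors bind as well. In the developing nervous system they act in progenitor cells and in the specification of neurons.

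The following stretches of the GRCh37 reference show the MEIS core at the summits of 8 shared distal peaks that the named-site rule picked, 6 of them among the 10 strongest and one each near MDGA1 and NTNG1. Each is written 5′ to 3′ on the strand that reads TGACAG, with 15 bases on either side, and capitals mark the core. In order, they lie at chr3:181327072-181327107 (+), chr3:156439977-156440012 (+), chr15:53813241-53813276 (+), chr13:42123154-42123189 (−), chr6:35013972-35014007 (−), chr10:98910144-98910179 (+), chr6:37533508-37533543 (+) and chr1:107646382-107646417 (+).
SOX2 upstream: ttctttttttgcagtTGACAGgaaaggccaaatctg
TIPARP downstream: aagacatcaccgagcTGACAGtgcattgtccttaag
WDR72 intron: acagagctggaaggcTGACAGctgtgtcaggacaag
RGCC downstream: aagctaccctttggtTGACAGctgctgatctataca
ANKS1A intron: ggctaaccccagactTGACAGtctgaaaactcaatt
SLIT1 intron: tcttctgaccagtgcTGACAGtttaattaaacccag
MDGA1 downstream: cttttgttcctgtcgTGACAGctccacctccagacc
NTNG1 upstream: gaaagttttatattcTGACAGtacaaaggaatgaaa

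The next 4 show the PBX-MEIS composite, in which TGAT or TGAG stands directly before the core. They are 4 of the 5 strongest shared distal peaks with the composite within 50 bp of the summit, and capitals mark the composite. They lie at chr5:112549489-112549528 (−), chr17:7789398-7789437 (−), chr7:134468443-134468482 (+) and chr19:11805791-11805830 (+).
MCC intron: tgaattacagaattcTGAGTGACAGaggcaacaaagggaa
CHD3 upstream: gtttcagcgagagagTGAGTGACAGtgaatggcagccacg
CALD1 intron: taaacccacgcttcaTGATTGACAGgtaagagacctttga
ZNF823 downstream: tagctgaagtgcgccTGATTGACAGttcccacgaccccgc

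A pair of longer windows, each with 50 bases on either side of the summit and read on the + strand, show the range among the strongest. The first, at chr3:181327039-181327139 upstream of SOX2, holds the core on both strands (capitals), and the other, at chr13:70815494-70815594 upstream of KLHL1, holds none.
SOX2 upstream summit: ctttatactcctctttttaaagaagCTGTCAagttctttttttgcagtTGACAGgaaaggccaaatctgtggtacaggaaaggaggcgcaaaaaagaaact
KLHL1 upstream summit: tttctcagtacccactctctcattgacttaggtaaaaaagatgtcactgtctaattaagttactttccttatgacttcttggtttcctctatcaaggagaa

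Most shared distal peaks were modest in strength. The −log10 p given by the authors' peak calling is a measure of significance over input. Its median was 9.0 for the replicate 1 peaks (quartiles 6.935 and 11.94) and 10.6 for their replicate 2 partners (quartiles 7.665 and 14.64). Median fold over input was 3.185 and 4.949, and 92.2% of the peaks had the higher fold in replicate 2. The distal peaks of the IDR list, 4943 replicate 1 peaks beyond 1 kb of a TSS, had a median −log10 p of 34.0 and a median fold of 6.44 in replicate 1. They too had the higher fold in replicate 2. The median fold of replicate 2 over replicate 1 was 1.81 in them and 1.515 in the shared distal peaks. A q of 0.05 or less was reached in both replicates by all 7167. These values were used by the selection and are given as a description.

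The selection cut a continuous range. By the lower of the 2 replicate values, the 3 peaks just inside the threshold had a −log10 p of 5.005, 5.006 and 5.007, and the 3 just outside it had 4.998 each. Across the 7167 peaks, the Spearman correlation between replicates was 0.230 for −log10 p and 0.174 for fold enrichment. Peaks are not replicates, and the correlation is within a range that the selection had narrowed. Paired summits were separated by 35 bp at the median, 59.8% of them within 50 bp, and 8.72% over 200 bp apart. In the distal IDR peaks the median was 11 bp.

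The description of these peaks as weaker than the IDR sites did not hold for all of them. The IDR list gives a −log10 p for each merged site, and the lowest was 12.5. This was also the lowest replicate 1 value of the distal IDR peaks. The lowest replicate 2 value was not compared, so a peak above 12.5 can still lie below the range of the list there. By the lower of the 2 replicate values, 674 shared distal peaks (9.40%) were at or above 12.5. Of these, 598 were overlaps of 1 peak with 1 peak, and none of the 6979 overlaps of that kind went above 16.93. The 50 peaks with a lower value of at least 20 were all 1-to-2 overlaps, in which a peak of one replicate overlapped 2 peaks of the other by at least 1 bp each. Only 188 shared distal peaks (2.62%) were of this kind. Among the 35 with a lower value of at least 30, replicate 1 held the 2 peaks in 21 and replicate 2 in 14.

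The same count was made over every distal peak shared by the replicates at a −log10 p of at least 30, whether in the IDR list or not. Of 2482 such peaks, 2423 were 1-to-1 overlaps, and all 2423 were in the IDR list. The other 59 were 1-to-2 overlaps, of which 24 were in the list and 35 (59.3%) were not. Whether the step that matches peaks between replicates left them out was not tested. Without the 1-to-2 overlaps, 54.2% of the remaining 6979 peaks held the MEIS core described below, and the number of motifs called against the distal IDR peaks was 5, as with them.

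**Figure D1:**
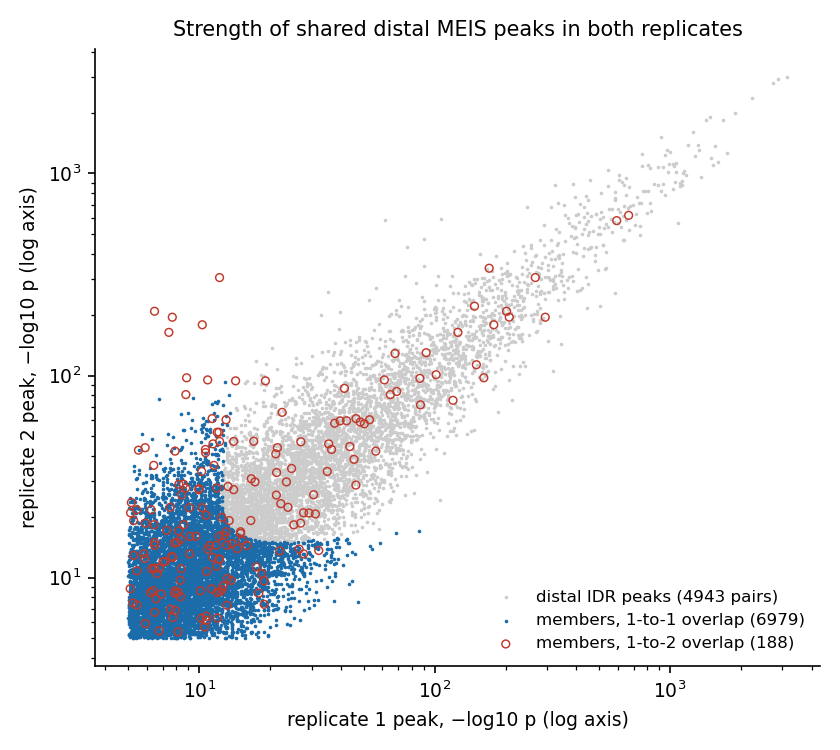
Each point is a distal peak shared by both replicates, with the −log10 p of replicate 1 on the x axis and of replicate 2 on the y axis, both log axes. Grey points are 4943 distal IDR peaks, blue points are the 6979 shared distal peaks in 1-to-1 overlaps, none of which has a lower value above 16.93, and red circles are the 188 in 1-to-2 overlaps, which run up to 667 in replicate 1 among the grey points.

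The 10 strongest shared distal peaks were all 1-to-2 overlaps. The first was at chr3:181326529-181330293, in no protein-coding gene and 103 kb upstream of the TSS of SOX2, the transcription factor that maintains neural stem cells. It reached a −log10 p of 667 in one replicate and 620 in the other, and its fold enrichment was 41.6 and 69.7. The replicate 1 peak was 3765 bp wide and overlapped 2 replicate 2 peaks, the second of which had a −log10 p of only 9.72 and a summit 2.65 kb away. The summits of the main pair were 6 bp apart, and the nearest IDR site was 100 kb away.

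The second, at chr3:156439427-156440550, lay 47.6 kb downstream of the TSS of TIPARP, an ADP-ribosyltransferase, with a −log10 p of 593 and 584. Here the replicate 2 peak overlapped 2 replicate 1 peaks, the further of which had a −log10 p of 3.45. The third, at chr15:53812795-53813844 in intron 19 of WDR72, had a −log10 p of 268 and 305. The fourth was the composite site in intron 3 of MCC at chr5:112548903-112549939, with 202 and 208. The next, at chr13:42122684-42123923 and 91.5 kb downstream of the TSS of RGCC, a cell cycle regulator, had 207.5 and 194.5.

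Of the remaining 5, one lay in intron 11 of ANKS1A, with a −log10 p of 295 and 194. One lay 412 kb upstream of the TSS of TCF4, a basic helix-loop-helix factor of neural progenitors, with 178 in both replicates. One lay in intron 4 of SLIT1, an axon guidance ligand, with 170.5 and 339.6. One lay 133 kb upstream of the TSS of KLHL1, with 148 and 220, and one in intron 4 of NLGN1, a synaptic adhesion protein, with 125.6 and 163.5. In 9 of the 10, it was the replicate 2 peak that overlapped 2 peaks. The core was in the 500 bp window of 8 of the 10 and within 50 bp of the summit in 7, the exceptions being the sites near TCF4 and KLHL1, with none, and NLGN1, with the nearest 197 bp away. Of the other motifs described below, the SOX motif was in all 10, the TEAD motif in 4 and the E-box in 3. Their shares over all 7167 peaks were 68.5%, 39.4% and 33.9%.

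Motif letters were not used by the selection, so motif shares could be tested. Windows of 500 bp centred on the replicate 1 summits were searched on both strands, and the 500 bp window 2 kb further along each chromosome served as background at the same locus. TGACAG was present at 54.2% of the shared distal peaks (95% Wilson interval 53.1 to 55.4) and in 27.2% (26.2 to 28.2) of the flanks. In 2826 peaks the core was at the summit and not in the flank, and in 890 it was the other way round, a ratio of 3.18 (exact McNemar test, two-sided, p = 2.85e-232). Exactly 1 copy was found in 38.6% of the windows and 2 or more in 15.6%. With replicate 2 summits in place of replicate 1 summits the share was 54.1%. Mean GC content was 43.1% in the peaks and 41.3% in the flanks.

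The cores were concentrated near the summits. Of 5306 occurrences, 49.3% (47.9 to 50.6) were centred within 50 bp of the summit, where 20.2% of the positions lie, against 19.0% (17.4 to 20.6) of 2305 occurrences in the flanks. In the distal IDR peaks the share was 55.8% (54.3 to 57.3), and in 2371 distal replicate 1 peaks that overlapped no replicate 2 peak, called replicate 1-only peaks here, it was 44.9% (42.5 to 47.4). The shared distal peaks thus lay between the other sets, and the 3 intervals did not overlap.

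**Figure D2:**
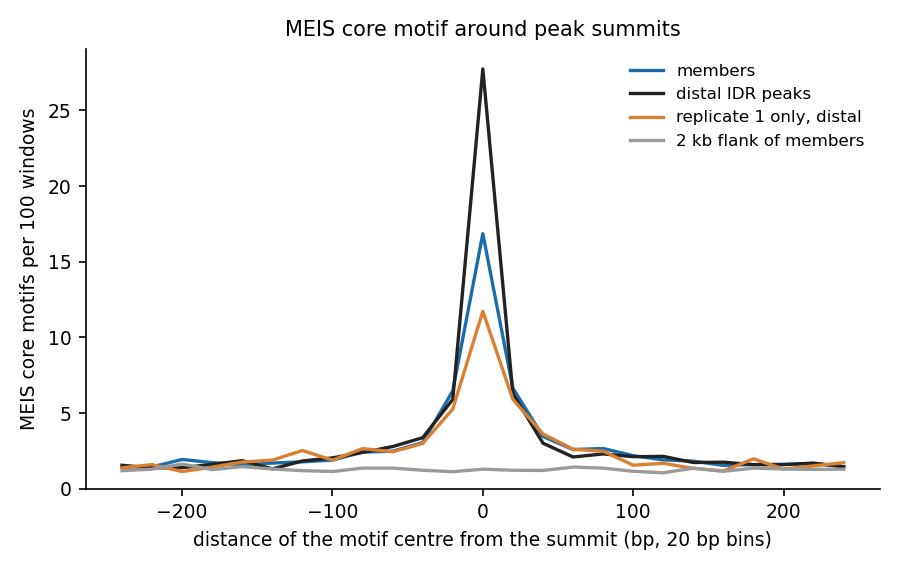
The number of MEIS core motifs per 100 windows is plotted against their distance from the summit in 20 bp bins, for the shared distal peaks (members), the distal IDR peaks, the replicate 1-only peaks and the flanks of the shared distal peaks. The central bin of the shared distal peaks reaches 16.9 per 100 windows, below the distal IDR peaks and above the replicate 1-only peaks, while their flanks stay level, at 1.30 in the central bin.

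The share of the core was compared with both neighbouring sets. It was lower than the 58.1% of the distal IDR peaks (odds ratio 0.854, 95% confidence interval 0.794 to 0.919, Fisher's exact test, adjusted p = 2.41e-04) and higher than the 50.1% of the replicate 1-only peaks (odds ratio 1.18, 1.07 to 1.29, Fisher's exact test, adjusted p = 0.00273). Replicate 1-only peaks were also weaker, with a median −log10 p of 6.15 against 9.0, and the part of strength in this difference was not tested. Both calls were lost at a −log10 p threshold of 8, where the adjusted p of Fisher's exact test was 0.0601 and 0.288. All p-values were adjusted over 14 motifs and both comparisons, and since peaks are not replicates, they describe these libraries only.

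The PBX-MEIS composite was rare. It was found in 238 shared distal peaks (3.32%, 2.93 to 3.76), against 0.516% of the flanks, and in 185 of the 238 it was centred within 50 bp of the summit. Its share was lower than the 4.33% of the distal IDR peaks (odds ratio 0.759, 0.629 to 0.916, Fisher's exact test, adjusted p = 0.0118), a call that was lost when the replicate summits had to lie within 100 bp, at a threshold of 8 on −log10 p, or with the TSS of all transcripts. Against the 2.49% of replicate 1-only peaks it was not called (odds ratio 1.35, 1.01 to 1.80, Fisher's exact test, adjusted p = 0.0953), but it was called as higher at a threshold of 4 (adjusted p = 2.99e-04), with summits within 100 bp (0.0176) and in replicate 2 (0.0185), all by Fisher's exact test.

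The 4 composite sites printed above differed in strength and setting. That in MCC was among the 10 strongest. The one at chr17:7789012-7790901, 2.69 kb upstream of the TSS of CHD3, a chromatin remodeller of the NuRD complex, had a −log10 p of 46.3 and 28.7 and a composite centred at the summit. The one at chr7:134468184-134468771 in intron 1 of CALD1, the gene of the actin-binding protein caldesmon, had 16.2 and 15.5 and lay 3.85 kb from an IDR site. The one at chr19:11805502-11806313, 43.9 kb downstream of the TSS of ZNF823, had 34.8 in replicate 1 and 14.7 in replicate 2.

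Motifs of factors that act in neural stem cells were common in the same windows. The SOX motif, searched as ACAATG or ACAAAG, was in 68.5% of the shared distal peaks and 52.4% of the flanks. Its share was lower than the 72.2% of the distal IDR peaks (odds ratio 0.837, 0.773 to 0.906, Fisher's exact test, adjusted p = 1.66e-04) and higher than the 63.1% of the replicate 1-only peaks (odds ratio 1.28, 1.16 to 1.41, Fisher's exact test, adjusted p = 2.74e-05), the latter lost at a threshold of 8, with an odds ratio of 1.10 (adjusted p = 0.579 by the same Fisher's exact test). GGAATG, the TEAD motif, bound by the DNA-binding partners of YAP in the Hippo pathway, was in 39.4% of the peaks and 24.5% of the flanks. It did not differ detectably from the 38.6% of the distal IDR peaks (odds ratio 1.03, 0.960 to 1.11, Fisher's exact test, adjusted p = 0.632) and was above the 35.5% of the replicate 1-only peaks (odds ratio 1.18, 1.07 to 1.30, Fisher's exact test, adjusted p = 0.00273). At a threshold of 8 the odds ratio to replicate 1-only peaks was 1.002 (adjusted p = 1 by Fisher's exact test).

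The E-box CAGCTG, bound by basic helix-loop-helix factors such as the proneural proteins, was in 33.9% of the shared distal peaks and 17.2% of the flanks. Against the 34.3% of the distal IDR peaks the odds ratio was 0.981 (0.909 to 1.06), and against the 29.4% of the replicate 1-only peaks it was 1.23 (1.11 to 1.36, Fisher's exact test, adjusted p = 5.14e-04), a call lost at a threshold of 8 (adjusted p = 0.231 by the same Fisher's exact test). The E-box was in 36.5% (35.0 to 38.03) of the 3885 peaks with the MEIS core and in 30.7% (29.2 to 32.3) of the 3282 without it. The last 3 letters of TGACAG are the first of CAGCTG, so that one stretch can hold both, as the WDR72 and RGCC sites printed above do. For TEAD and SOX the shares were 38.8% and 67.4% with the core and 40.2% and 69.9% without it. At least one of these 4 motifs was present in all but 380 (5.30%) of the windows.

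The CTCF core and the GC box were the 2 motifs called as more frequent than in the distal IDR peaks. The core motif of CTCF, a factor found at chromatin loop boundaries, was in 77 shared distal peaks (1.07%), more than the 0.526% of the distal IDR peaks (odds ratio 2.05, 1.315 to 3.21, Fisher's exact test, adjusted p = 0.0033) and less than the 2.02% of the replicate 1-only peaks (odds ratio 0.526, 0.365 to 0.756, Fisher's exact test, adjusted p = 0.00273). The flanks held it in 0.237%. Both calls were lost at a threshold of 8 on −log10 p (odds ratios of 1.74 and 0.371, with adjusted p = 0.176 and 0.0601 by Fisher's exact test). The second was also lost in windows of 200 bp and with the same comparison made in replicate 2, where the odds ratio was 0.748. The CTCF core was in 1.49% (1.16 to 1.925) of the shared distal peaks with the MEIS core. Without the MEIS core it was in 0.579% (0.371 to 0.9025), a difference that was not tested. The GC box GGGCGG was in 9.33% of the peaks, above the 7.32% of the distal IDR peaks (odds ratio 1.30, 1.14 to 1.49, Fisher's exact test, adjusted p = 5.14e-04), and in 6.70% of the flanks. That call was lost with the TSS of all transcripts (Fisher's exact test, adjusted p = 0.121) and at a threshold of 8 (Fisher's exact test, adjusted p = 0.176). Windows of over 55% GC made up 7.48% of the shared distal peaks and 4.19% of the distal IDR peaks.

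The LHX homeodomain motif TAATTA was in 18.1% of the shared distal peaks, 18.3% of the distal IDR peaks and 20.1% of the flanks. It was above the 15.2% of the replicate 1-only peaks (odds ratio 1.23, 1.085 to 1.40, Fisher's exact test, adjusted p = 0.0033), a call lost at a threshold of 8 (adjusted p = 0.0601 by Fisher's exact test), and the direction turned when the same comparison was made in replicate 2 (odds ratio 0.814). The odds ratio of the GC box turned as well. It was 0.847 in replicate 1, where it was not called (Fisher's exact test, adjusted p = 0.0792). In replicate 2 it was 1.45 and called (Fisher's exact test, adjusted p = 7.92e-08). The peaks seen in one replicate thus differed in letters between the replicates. The AP-1 motif TGANTCA was in 20.3% of the shared distal peaks and 15.8% of the flanks. The FOX motif TGTTTAC was in 7.41% and 7.80%, and the POU octamer ATGCAAAT in 6.04% and 4.33%. These 3, the ETS motif CCGGAAGT (0.502% of the peaks), the NRF1 motif (0.377%) and the NFI motif (0.0977%) were not called in either comparison by Fisher's exact test. The NRF1 motif was called as more frequent than in the distal IDR peaks at a threshold of 4, with summits within 100 bp and without replicate 2, with adjusted p of 0.0422 to 0.0498 by Fisher's exact test.

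**Figure D3:**
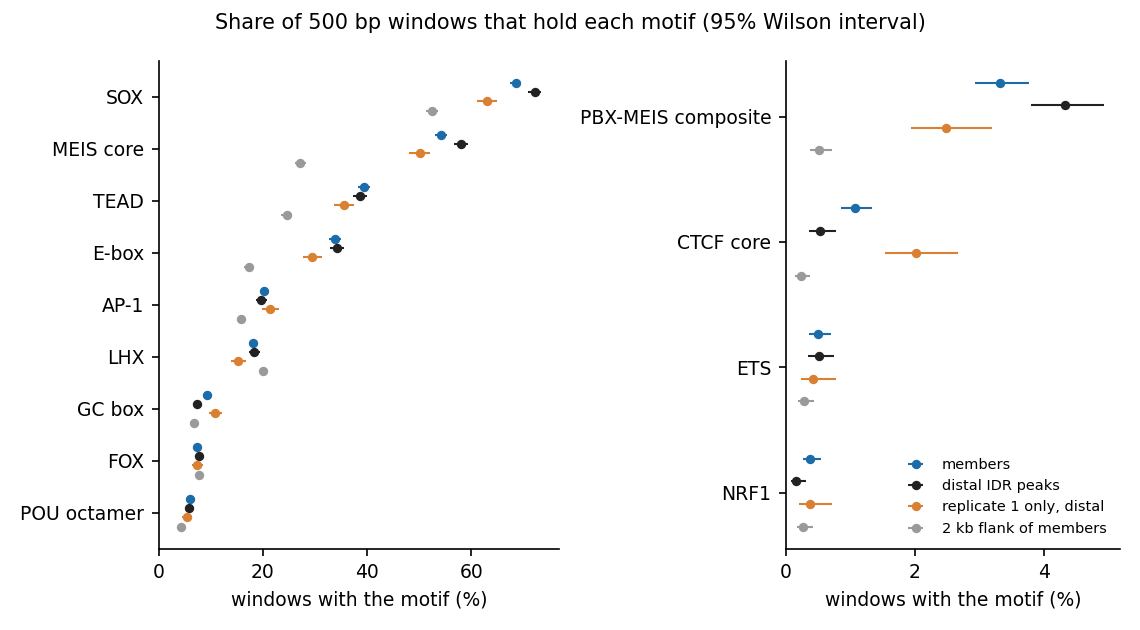
The percentage of 500 bp windows that hold each motif is shown with 95% Wilson intervals for the shared distal peaks (members), the distal IDR peaks, the replicate 1-only peaks and the flanks, common motifs on the left and rare ones on the right, each panel with its own axis. The MEIS core is in 54.2% of the shared distal peaks and 27.2% of their flanks, and the CTCF core runs from 0.526% in the distal IDR peaks to 2.02% in the replicate 1-only peaks.

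Within the shared distal peaks, the core varied little with strength. In 5 classes of nearly equal size, from the weakest to the strongest by the lower −log10 p, its share was 51.7%, 54.7%, 54.1%, 54.5% and 56.0%. The composite was in 2.23% (1.585 to 3.13) of the weakest class and 3.98% (3.08 to 5.115) of the strongest. With 674 peaks at or above the lowest IDR value, the core share was 55.3% (51.6 to 59.1). Strength was one of the values that chose the peaks, so these shares are given without a test.

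The distance between the replicate summits went with a wider range of shares. Where the summits lay 0 to 20 bp apart, 57.1% (55.2 to 59.0) of 2586 windows held the core, and where they lay over 200 bp apart, 46.2% (42.4 to 50.2) of 625 did. The composite ran from 4.41% (3.68 to 5.27) to 1.28% (0.650 to 2.505) over the same classes. The SOX motif stayed between 66.6% and 70.8% in all 5 classes.

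**Figure D4:**
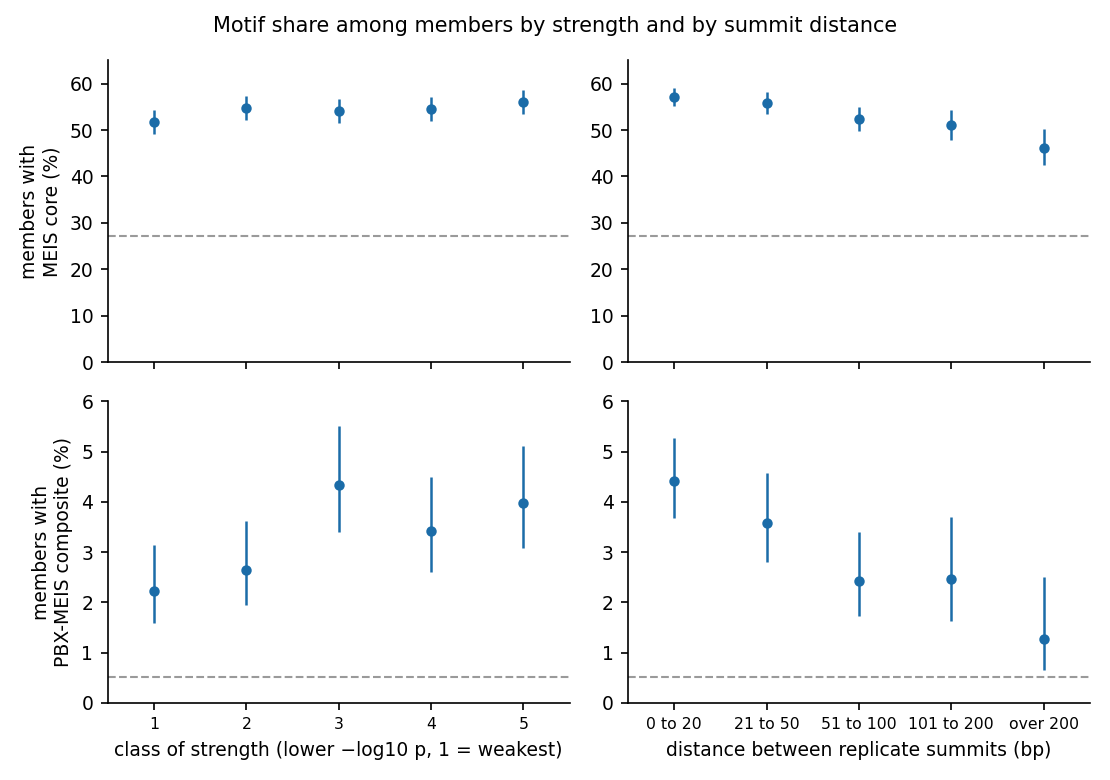
The percentage of shared distal peaks with the MEIS core (top) and the PBX-MEIS composite (bottom) is shown with 95% Wilson intervals, on the left by 5 classes of strength of nearly equal size and on the right by the distance between the replicate summits in bp. Dashed lines mark the shares of the flanks, 27.2% and 0.516%. The core runs from 51.7% to 56.0% over the classes of strength and from 57.1% to 46.2% over the distances.

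The selection required distance from promoters, and the peaks lay far from them. The median distance to the nearest TSS was 90.1 kb, against 109 kb for the distal IDR peaks and 67.0 kb for the replicate 1-only peaks, and 10.6% of the shared distal peaks were more than 500 kb away. Their summits lay in introns in 43.4% (42.2 to 44.5), in exons in 1.98% and outside protein-coding genes in 54.6%. The intronic share was close to the 43.3% of the distal IDR peaks (odds ratio 1.005, 0.934 to 1.08, Fisher's exact test, adjusted p = 0.896). Exonic summits were rarer than the 3.04% of the replicate 1-only peaks (odds ratio 0.645, 0.484 to 0.860, Fisher's exact test, adjusted p = 0.0217). Summits outside protein-coding genes were more frequent than the 51.5% of that set (odds ratio 1.14, 1.04 to 1.25, Fisher's exact test, adjusted p = 0.0217).

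Shared distal peaks gathered near IDR sites more often than replicate 1-only peaks did. Of the shared distal peaks, 9.43% (8.78 to 10.1) lay within 10 kb of an IDR site, against 7.68% (6.67 to 8.82) of the replicate 1-only peaks (odds ratio 1.25, 1.06 to 1.49, Fisher's exact test, p = 0.0091). Within 100 kb the shares were 47.0% and 41.4% (odds ratio 1.25, 1.14 to 1.38, Fisher's exact test, p = 2.47e-06). The replicate 1-only peaks also lay nearer to TSS, as given above. Another shared distal peak lay within 10 kb of 953 (13.3%).

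The genes around the peaks were then counted. A peak was assigned to the gene with the nearest TSS and to every gene whose body held its summit, so that a peak could count for more than 1 gene. Of 19812 protein-coding genes, 4084 (20.6%) had at least 1 shared distal peak, and 2271 (11.5%) had one and no peak of the IDR list. The median body length was 23.0 kb over all genes. Counted once per peak, by the longest gene that held it, it was 224 kb for the 3251 peaks inside genes. Longer genes hold more of any positions, so this contrast is not a result about these peaks. Assignment by nearest TSS can also give more peaks to genes far from others, and that spacing was not measured. The shares of lists are therefore given with the list's median length and with no test, to be read beside the 20.6% of all genes. No list is set apart by its share.

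The gene body with the most shared distal peaks was AUTS2, a regulator of neuronal gene expression mutated in neurodevelopmental disorder, with 16 in 1195 kb, beside 8 peaks of the IDR list. PTPRD, a receptor phosphatase of synapses, held 15 beside only 2 IDR peaks. MACROD2 held 13, ERBB4, the neuregulin receptor, 12, and the teneurin TENM2 12. ADGRL3, DCC and FRMD4A held 10 each, 6 genes held 9 each (CSMD3, EFNA5, FAT3, NKAIN2, PDE4D and WWOX), and 1266 genes held 1. Per length, EFNA5 was densest of these 14, with 30.6 per Mb, against 13.4 in AUTS2 and 6.53 in PTPRD. The core was in 9 of the 16 peaks in AUTS2, and in 4, 7 and 9 of the 10 in ADGRL3, DCC and FRMD4A. Over all shared distal peaks its share was 54.2%.

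**Figure D5:**
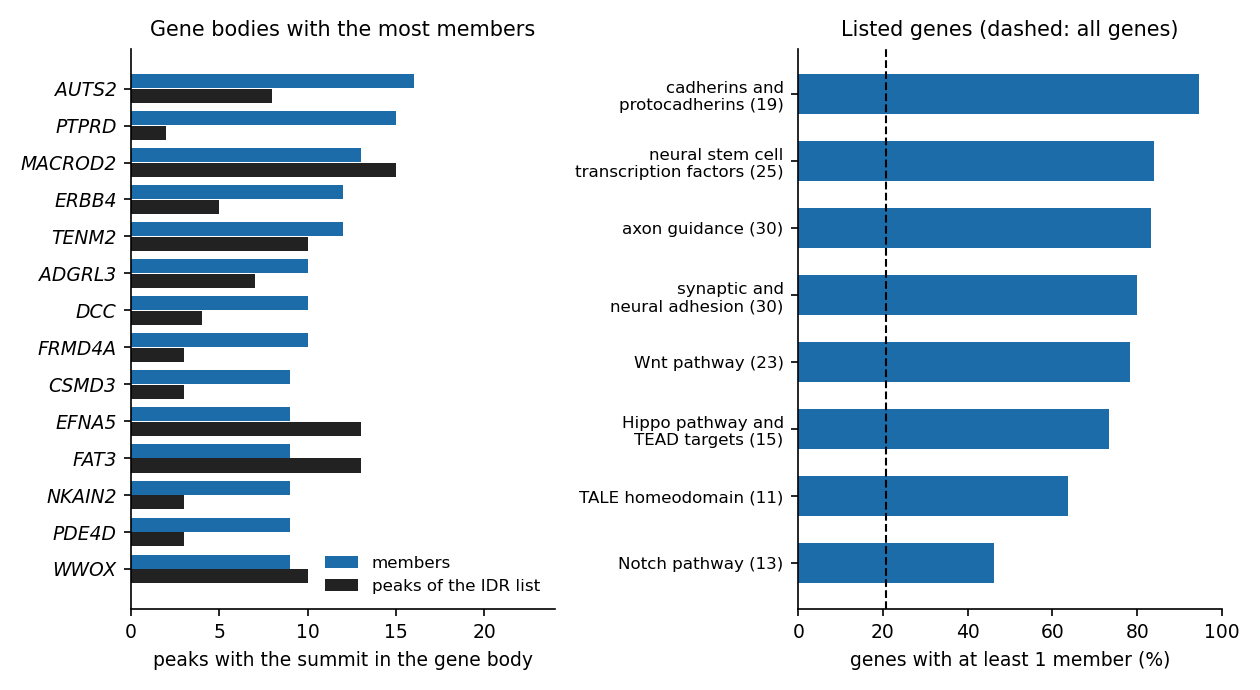
On the left, bars give the number of shared distal peaks (members, blue) and peaks of the IDR list (black) with the summit in the gene body, for the 14 gene bodies with at least 9 shared distal peaks; AUTS2 leads with 16 and 8. On the right, bars give the percentage of genes in each list with at least 1 shared distal peak, with the number of genes in parentheses and the 20.6% of all genes as a dashed line.

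Of 25 transcription factors of neural stem cells, 21 (84.0%) had a shared distal peak, beside 20.6% of all genes. Their median body length was 9.0 kb, below that of all genes. NR2F1, an orphan nuclear receptor that patterns the cortex, had 17, none in its body, and its relative NR2F2 had 15, 2 of them in its body. SOX2 had 15, none of them in its body of 2.51 kb. SOX11, a factor of newly formed neurons, had 12, also none in its body. TCF4 had 12, 7 of them in its body. The IDR list gave these genes 10, 26, 8, 7 and 3 peaks in the same order. The 4 genes of the list without a shared distal peak were HES5, NFIA, NFIX and SOX3.

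Of the 11 TALE genes, the family to which MEIS belongs, 7 (63.6%) had a shared distal peak, with a median body length of 59.4 kb. TGIF1, a repressor of TGF-beta signaling, had 9, and MEIS1 had 5. MEIS2, PBX3 and PKNOX2 had 3 each. MEIS3 had 2 and no peak of the IDR list. PBX2, PBX4, PKNOX1 and TGIF2 had none.

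Genes of 3 signaling pathways were counted next. In the Hippo list, 11 of 15 genes (73.3%, median length 59.9 kb) had a shared distal peak. CCN2, a secreted matrix protein and target of YAP and TEAD, had 5, and CCN1, VGLL4 and AMOTL1 had 3 each. AMOTL1, YAP1, AJUBA, AMOTL2 and TEAD3 had shared distal peaks and no IDR peak. In the Wnt list, 18 of 23 (78.3%, 80.8 kb) had one, led by TCF7L2, a nuclear effector of beta-catenin, with 5, the receptor FZD7 with 4 and LGR5 with 3. FZD7, LGR5, RSPO3 and LRP5 had no IDR peak. In the Notch list, 6 of 13 (46.2%, 36.3 kb) had one, led by the coactivator MAML2 with 8, the ligand JAG1 with 7 and MAML3 with 6, while NOTCH1, NOTCH2, NOTCH3 and RBPJ had none. The IDR list gave NOTCH2 3 peaks and NOTCH1 1, and it gave none to NOTCH3 and RBPJ.

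Genes of axon guidance and adhesion, which are long, held many. Of 30 axon guidance genes, 25 (83.3%, median length 246 kb) had a shared distal peak. EFNA5, an ephrin ligand, had 19, SLIT2, a repellent ligand of ROBO receptors, 13, the netrin receptor DCC 11 and SEMA6A 10. ROBO1, named here after its values were seen, had 7, of which 6 lay in its body of 1171 kb, and no peak of the IDR list. Of 30 synaptic and neural adhesion genes, 24 (80.0%, 601 kb) had one, and all 24 also had an IDR peak. The latrophilins ADGRL2 and ADGRL3 had 23 and 15, and their teneurin ligands TENM2 and TENM3 had 17 and 13. The 23 of ADGRL2 all lay outside its body. Of 19 cadherins and protocadherins, 18 (94.7%, 226 kb) had one, led by N-cadherin (CDH2) and PCDH7 with 14 each, CDH8 with 11 and PCDH9 with 10.

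The study had looked in detail at 5 loci, and the peaks within 500 kb of each gene body were counted. MEIS1 (ENSG00000143995, chr2:66662257-66801001) had 5 shared distal peaks beside 3 IDR sites, 2 of them in its body. The highest, at chr2:66543916-66545008 and 117 kb upstream of the TSS, had a −log10 p of 10.5 and 13.1 and 4 copies of the core in its window, the nearest 67 bp from the summit. MEIS2 (ENSG00000134138, chr15:37181405-37392750) had 6 beside 4 IDR sites. The highest, at chr15:37750216-37750706 and 358 kb upstream, had 11.1 and 9.32 and no core.

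MDGA1 (ENSG00000112139, chr6:37598455-37665659), a synaptic cell surface protein, had 5 beside 2 IDR sites and none in its body. The highest, at chr6:37533248-37533851 and 132 kb downstream of its TSS, had a −log10 p of 10.1 and 12.3, and the TSS of CCDC167 was nearer, at 65.9 kb. NTNG1 (ENSG00000162631, chr1:107683661-108027545), a membrane-anchored netrin, had 9 beside 3 IDR sites, 5 of them in its body and 7 of them with the core. The highest, at chr1:107645816-107646724 and 37.3 kb upstream, had 12.65 and 15.1. DACH1 (ENSG00000276644, chr13:72012098-72441342), a transcriptional repressor of progenitors, had 8 shared distal peaks and 8 IDR sites. The highest, at chr13:72089530-72090652 in intron 6 of DACH1, had 16.0 and 13.55, with the nearest core 144 bp from the summit. The core was in 2 of the 5 shared distal peaks at MEIS1, 4 of 6 at MEIS2, 3 of 5 at MDGA1 and 6 of 8 at DACH1. At the 5 loci, no shared distal peak exceeded a lower −log10 p of 13.55.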

How the data were processed

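MEIS ChIP-seq of hNSC was measured in 2 ChIP and 2 Input samples, grouped by their titles. The authors trimmed reads of 36 bp with cutadapt 1.16, mapped them to GRCh37 with bowtie2 2.3.0, applied a mapping quality limit of 30 in samtools 1.2, removed duplicates with Picard 2.15.0, and called peaks per replicate against input with MACS2 (version not given in the sources used here) at a p of 0.01. IDR 2.0.3 was run on both lists. The mapping filter can miss sites in repeats, and which of the described washes each replicate had is not known.

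The deposited peak lists give fold enrichment, a linear ratio over input, and −log10 p and −log10 q at the peak. The deposited IDR list gives a −log10 p. Its 8 columns of per-replicate values were not used. No file gives counts, so depth is unknown, and intervals cover the number of peaks alone.

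Overlap meant at least 1 bp. Summits were compared with canonical TSS of GENCODE 44 mapped to GRCh37, and sequences were read from that genome. Motifs were searched in 500 bp windows. Two-sided Fisher's exact tests compared shares between sets, adjusted by Benjamini-Hochberg over all motifs or positions and both comparisons at a threshold of 0.05, and an exact McNemar test compared summits with flanks. Scripts used Python 3.11.15, scipy 1.17.1, pandas 2.3.3 and pysam 0.24.0. The overlap, the motif search and Fisher's exact test were tried on simulated data, and the McNemar test was not.

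Named were the 10 peaks with the highest lower −log10 p, the highest within 500 kb of 5 loci, the 5 highest with a composite within 50 bp of the summit, the 10 gene bodies with the most peaks (with ties) and up to 4 genes per list. The members and lists were chosen with earlier results of these data known. The values of one listed gene are not reported here.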

Additional observations from a re-analysis of the deposited data

How the results depend on the processing

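Of 203 results under other settings, 170 kept their direction and side of the threshold, a share within its error, or a count within a fixed factor. That factor is not an error. The 10632 peaks without replicate 2 and the 9021 at a −log10 p threshold of 4, against 7167, are among the 170. The number of shared distal peaks was 3508 with a −log10 p of at least 8 in both replicates, and 10632 to 15789 without replicate 1 or replicate 2, where no overlap can be asked for. The share with TGACAG was 55.55% with summits within 100 bp, 40.6% in windows of 200 bp and 52.0% to 52.6% without a replicate. At a threshold of 8, TGACAG had an odds ratio of 0.886 against distal IDR peaks (Fisher's exact test, adjusted p = 0.0601) and 1.16 against replicate 1-only peaks (Fisher's exact test, adjusted p = 0.288), and 1 motif in place of 5 was called against distal IDR peaks. With the TSS of all transcripts, 3 were called. Within 50 kb of an IDR site lay 30.8% of the shared distal peaks. Taking the peaks from replicate 2 turned the direction against peaks of one replicate for the LHX motif (odds ratio 0.814) and the GC box (1.45). The GC box had not been called in replicate 1. Fewer peaks remain with a −log10 p of at least 8; beyond that, the cause of these changes was not tested.

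Leaving out 1-to-2 overlaps was chosen after seeing the data and changed no call. No paired analysis was possible because replicate numbers are shared only by ChIP and Input samples, and Input entered through peak calling alone. The planned count of summits in masked repeats was not run, since the genome used here does not mark repeats, nor was the comparison with replicate 1-only peaks without a replicate, where that set is undefined.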
